A study of Mus musculus with 12 samples.

Results

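The 9 genes described here, all of the p53 and DNA damage response, were followed across 4 ways of preparing brain myeloid cells for single-cell RNA sequencing. They were picked by symbol out of the 31053 genes that each count matrix lists. All 9 members were found, namely Cdkn1a, Mdm2, Gadd45a, Gadd45b, Gadd45g, Ccng1, Trp53inp1, Bbc3 and Bax, and the question was whether enzymatic digestion, or the inhibitors meant to silence its effects, moved any of them. Each of the 12 libraries came from the whole brain of a single male C57BL/6J mouse on postnatal day 90, sorted as CD45+ and CD11b+ cells, which are mostly microglia, the macrophages that live in brain tissue. Brains were either broken up cold in a Dounce homogenizer (DNC) or digested warm with enzymes (ENZ). Some brains of each kind received no inhibitors (NONE), and others received a cocktail (INHIB) of actinomycin D and triptolide, which block transcription, together with anisomycin, which blocks translation. That gives 3 animals in each of DNC-NONE (replicates 1, 2 and 3), DNC-INHIB (4, 5 and 6), ENZ-NONE (4, 5 and 6) and ENZ-INHIB (1, 2 and 3). The labels name no transgene or mutation, and the sort gate was wide, so that border macrophages and blood-derived cells could pass it.

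The p53 protein, encoded by Trp53, is a transcription factor that is kept low by Mdm2, a ubiquitin ligase and itself a p53 target. When DNA is damaged or cells are stressed, p53 is stabilised and switches on genes that stop the cell cycle (Cdkn1a), adjust the response (Ccng1, Trp53inp1) or prime apoptosis (Bbc3, Bax). The Gadd45 genes encode small stress sensors of the same name, of which Gadd45a is a classical p53 target, whereas Gadd45b and Gadd45g are also induced quickly by cytokines and other signals without p53. Actinomycin D is known as an activator of p53 as well as a blocker of transcription.

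Promoter letters are shown for the Gadd45 genes and for Cdkn1a because these are the members that stand for signal-driven and for p53-driven transcription, and because Gadd45g is the member with the widest range of levels among those tested. Each line gives the 250 bases before a RefSeq transcription start in GRCm38.p6, read 5′ to 3′ on the gene's own strand, with matches to the TATA box (TATAAA) or to the p53 decamer in capitals.
Gadd45g, chr13:51846425-51846674, plus strand: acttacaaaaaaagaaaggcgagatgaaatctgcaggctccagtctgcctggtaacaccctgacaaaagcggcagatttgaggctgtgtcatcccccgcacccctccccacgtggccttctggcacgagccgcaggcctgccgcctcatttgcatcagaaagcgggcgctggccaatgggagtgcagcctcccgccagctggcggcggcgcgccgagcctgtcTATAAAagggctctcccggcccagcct
Gadd45b, chr10:80929841-80930090, plus strand: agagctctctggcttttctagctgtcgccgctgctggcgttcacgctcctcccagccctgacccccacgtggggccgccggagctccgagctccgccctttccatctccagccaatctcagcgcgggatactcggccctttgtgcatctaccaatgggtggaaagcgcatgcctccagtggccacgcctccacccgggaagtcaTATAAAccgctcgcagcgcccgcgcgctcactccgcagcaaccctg
Gadd45a, chr6:67037408-67037657, minus strand: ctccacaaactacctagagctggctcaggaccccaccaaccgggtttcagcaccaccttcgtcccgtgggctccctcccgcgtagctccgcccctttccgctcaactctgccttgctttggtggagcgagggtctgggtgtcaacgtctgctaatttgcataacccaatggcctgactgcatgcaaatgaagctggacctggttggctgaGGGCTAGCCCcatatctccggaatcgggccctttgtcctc
Cdkn1a upstream start, chr17:29090729-29090978, plus strand: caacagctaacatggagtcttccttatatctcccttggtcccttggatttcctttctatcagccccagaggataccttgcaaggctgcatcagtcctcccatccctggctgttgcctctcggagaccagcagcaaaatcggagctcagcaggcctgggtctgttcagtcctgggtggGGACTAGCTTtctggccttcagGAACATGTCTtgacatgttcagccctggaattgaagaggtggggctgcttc
Gadd45g and Gadd45b hold a TATA box and no p53 decamer in these windows, while Gadd45a holds a decamer and no TATA box. The upstream Cdkn1a window holds 2 decamers, at -73 and -51 from the start, and the window of the other Cdkn1a start, 2790 bases downstream, holds none. Windows were given for 8 of the 9 members, 11 windows in all, and the decamer was found on either strand in 5 of the 11 (Cdkn1a, Mdm2, Gadd45a, Ccng1 and Bax) against 7.13% of 32851 mouse promoter windows of the same length. TATAAA was in 2 of the 11 against 12.4%, the E-box CACGTG in 4 against 6.02%, and the AP-1 motif TGANTCA and the CRE motif TGACGTCA in 0 of the 11 against 6.75% and 1.55%. The CACGTG of Gadd45g and that of Gadd45b do not overlap their TATA boxes. A match to these letters is a description of the sequence and not evidence that a factor binds there.

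Values below are UMI counts, in which each counted transcript molecule carries its own tag, summed over the cells of a library and scaled to counts per 1e6 UMIs of that library (CPM). The 18830 cells kept had at least 1000 UMIs, at least 500 genes and at most 10% mitochondrial UMIs, and held 26851505 UMIs. Libraries had 855 to 2185 cells with medians of 1153 to 1572 UMIs per cell, and 65 of the 66 library pairs shared barcodes, 12 at the most. All 8 microglial marker genes were detected, at 31429 to 36470 CPM in sum, so defining markers of the labelled cells were present throughout. Summed levels of the 7 border macrophage and 5 monocyte markers were highest in DNC-NONE (up to 304 and 269 CPM), and the 4 neutrophil markers reached 2088 CPM in a single DNC-NONE library. Among the libraries, 2 stood apart from others of their group. ENZ-NONE replicate 6 had 1753 CPM of the early response gene Fos against 411 and 392 in replicates 4 and 5, and DNC-NONE replicate 1 had 37.2 CPM against 0.941 and 2.78 in replicates 2 and 3. Values without these libraries are given where a result of a member rests on them.

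Across the 4 preparations, group means stayed close for Mdm2 (44.2 to 46.8 CPM) and Bax (159 to 170 CPM). For the other members, the lack of a call reported below does not show an unchanged level. Among the members abundant enough to test, the largest difference between group means was that of Gadd45g, whose group mean was highest after digestion without inhibitors (234 CPM ± 215, SD, n = 3) but which differed as much between animals of a group as between groups. Counts were tested across 9884 genes at once with edgeR's quasi-likelihood test, and a gene was called at a Benjamini-Hochberg adjusted p under 0.05 with an absolute log2 fold change over 0.58. Of the members, 7 passed the filter on low counts, while Gadd45a (49 UMIs in all libraries together) and Gadd45b (23 UMIs) did not. None of the 7 was called in any of the 6 pairs of groups or in the interaction of digestion with inhibitors. Among all genes tested, 0.617% passed in ENZ-NONE vs DNC-NONE, 0.789% in ENZ-NONE vs DNC-INHIB, 0.374% in ENZ-NONE vs ENZ-INHIB, 0% in DNC-NONE vs DNC-INHIB, 0.152% in ENZ-INHIB vs DNC-INHIB, 0.101% in ENZ-INHIB vs DNC-NONE and 0.172% in the interaction. At an unadjusted p under 0.05 the members that passed were Gadd45g in ENZ-NONE vs DNC-NONE (8.6% of all genes), Gadd45g in ENZ-NONE vs DNC-INHIB (9.55%), Gadd45g and Cdkn1a in ENZ-NONE vs ENZ-INHIB (5.22%), Bbc3 and Ccng1 in DNC-NONE vs DNC-INHIB (4.72%) and in ENZ-INHIB vs DNC-NONE (10.4%), Cdkn1a in the interaction (3.53%) and none in ENZ-INHIB vs DNC-INHIB (8.43%). DESeq2 called 0 members in these comparisons as well.

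**Figure D1:**
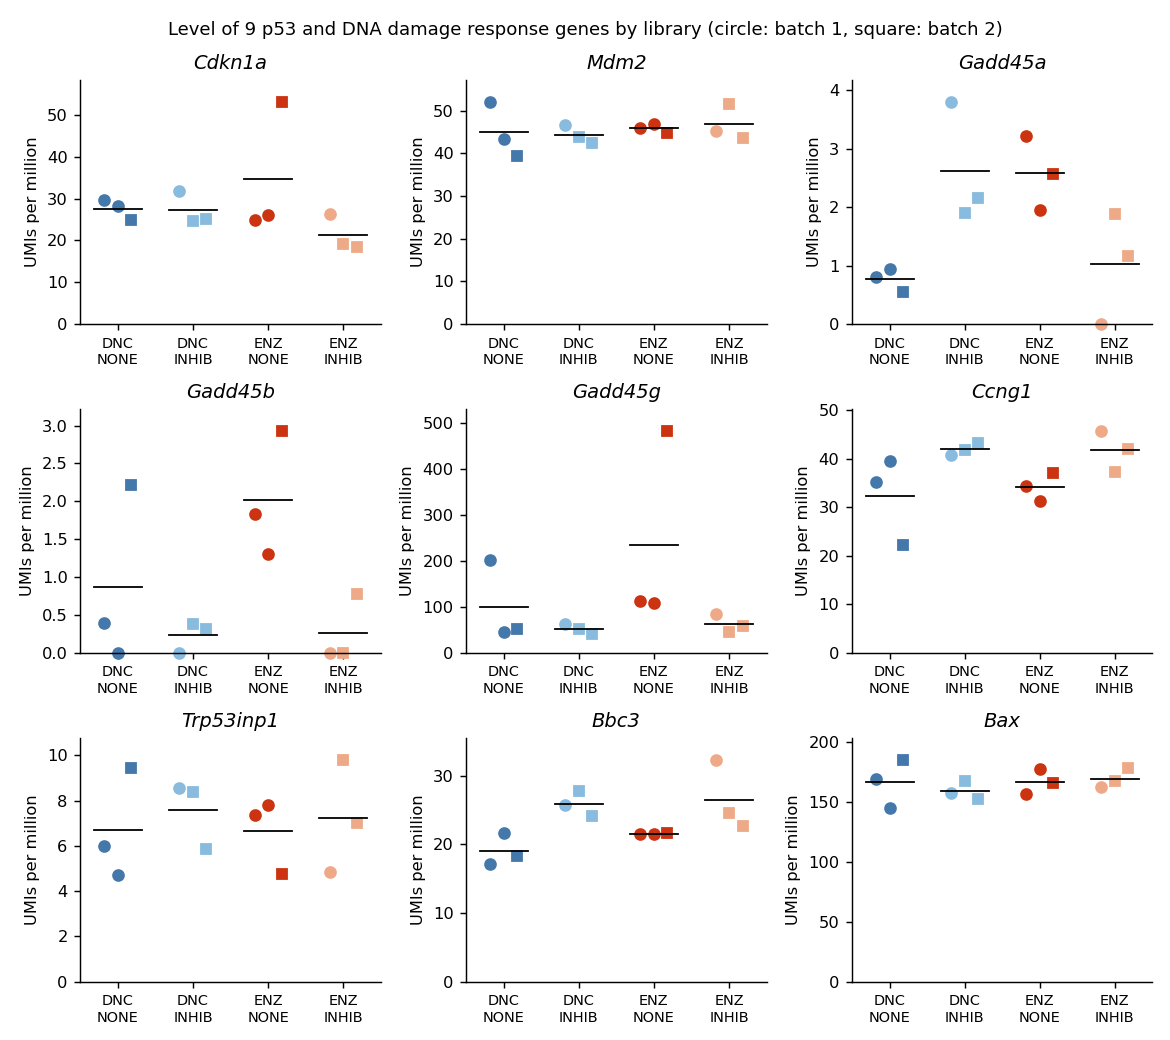
Level of each gene in CPM, 1 point per library and 1 panel per gene, with the group mean as a bar and the label batch as the point's shape. ENZ-NONE replicate 6 lies far above all other libraries for Gadd45g (483) and above them for Cdkn1a (53.1), while Mdm2 and Bax lie within narrow bands in all 4 groups.

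Gadd45g (ENSMUSG00000021453, chromosome 13, 51846678 to 51848468, plus strand) encodes the Gadd45 family member best known as a fast cytokine-responsive stress gene. Its level was 113, 107 and 483 CPM in ENZ-NONE replicates 4, 5 and 6. In DNC-NONE replicates 1, 2 and 3 it was 203, 44.2 and 51.1 CPM. With inhibitors it was 63.7, 51.3 and 40.8 CPM after Dounce homogenization and 83.5, 45.2 and 58.1 CPM after digestion. Every ENZ-NONE library was thus above every inhibited library, but DNC-NONE replicate 1 was above ENZ-NONE replicates 4 and 5. The share of genes whose ENZ-NONE libraries all lay above the other group was 4.78% against DNC-INHIB and 4% against ENZ-INHIB, and no member lay above all other 9 libraries, as 0.718% of genes did.

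Against DNC-INHIB, Gadd45g had a log2 fold change of 2.29 in ENZ-NONE, with an SE of 0.54, a 95% interval of 1.15 to 3.42 and an adjusted p of 0.0535. It was 2.02 against digested and inhibited cells (SE of 0.54, adjusted p of 0.199, or 0.87 with an adjusted p of 0.952 without ENZ-NONE replicate 6) and 1.23 against DNC-NONE (SE of 0.52, adjusted p of 0.496). The first of these values lies just outside the threshold. It was called with batch as a covariate (adjusted p 0.0415) and without DNC-NONE replicate 1 (2.29, adjusted p 0.011). It was not called without ENZ-NONE replicate 6 (1.13, adjusted p 0.324), with DESeq2 (adjusted p 0.194) or with robust dispersion (adjusted p 0.386). Against DNC-NONE, the fold change of Gadd45g was 0.053 without ENZ-NONE replicate 6 and 2.38 without DNC-NONE replicate 1, so that value rested on these libraries.

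With both of these libraries left out, a setting chosen after the data were seen, Gadd45g was called in all 3 comparisons of ENZ-NONE, with a log2 fold change of 1.21 over uninhibited Dounce cells (adjusted p 0.00318), of 1.14 over inhibited Dounce cells (adjusted p 0.000467) and of 0.87 over inhibited digested cells (adjusted p 0.0108). These are also the 2 libraries with the highest Gadd45g levels (483 and 203 CPM), so leaving them out narrows the spread of the gene under test, and the calls are not independent of that choice. ENZ-NONE then consists of replicates 4 and 5, both of batch 1. With all libraries kept, the batch 1 mean Gadd45g level was 110 CPM with digestion and 124 CPM with Dounce homogenization when no inhibitor was used, and 83.5 and 63.7 CPM with inhibitors. The 124 CPM is the mean of DNC-NONE replicate 1 (203 CPM) and replicate 2 (44.2 CPM), so its order against 110 CPM rests on replicate 1. Within batch 2 these means were 483, 51.1, 51.7 and 46.1 CPM in the same order, and the 483 CPM is ENZ-NONE replicate 6 alone. Each batch holds as few as 1 library of a group.

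The share of cells with the transcript had the same outline as its level. A UMI of Gadd45g was found in 10.6%, 10.3% and 35.5% of cells in ENZ-NONE replicates 4, 5 and 6 (95% exact intervals 9.10 to 12.2, 8.56 to 12.2 and 33.3 to 37.8). In DNC-NONE it was found in 19.0%, 4.91% and 5.80% of cells, and in the inhibited libraries in 5.40% to 9.04%. Since no cell type in the sort can be taken to lack Gadd45g, a background share from free RNA was not set beside these. Positive cells also held more copies, with 2.12 Gadd45g UMIs per positive cell in ENZ-NONE replicate 6 and up to 17 in a cell, against 1.06 to 1.48 in the other 11 libraries. When every cell was thinned to 1000 UMIs, which takes out differences in depth, the mean share in ENZ-NONE was 14.5% ± 11.1 (SD, n = 3) against 6.20% ± 3.64 (SD, n = 9) for the other libraries. An exact permutation test, two-sided, gave p = 0.1 for this difference of 8.31 percentage points, and the 220 possible splits can give no p under 0.00909. It was 1.89 points without ENZ-NONE replicate 6 (exact p 0.4), and 9.47 points without DNC-NONE replicate 1 (exact p 0.0121).

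Gadd45g was also found in cells with no detected UMI of Fos or of Dusp1, a phosphatase gene that is likewise an early response gene. Here each cell was thinned once at random, and Fos and Dusp1 were read from the UMIs that were left. In ENZ-NONE replicate 6, 33.1% of the 366 cells with UMIs of both Fos and Dusp1 had a Gadd45g UMI, and so had 24.6% of the 918 cells with neither. In ENZ-NONE replicate 4 these shares were 14.7% of 75 cells and 7.10% of 1268 cells, and in replicate 5 they were 12.7% of 55 and 7.43% of 848. In DNC-NONE replicate 1 no more than 3 cells had both transcripts, yet 15.03% of the 1763 cells with neither held Gadd45g. Cells of 1 library are not replicates, and these shares are given as a description with no test.

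**Figure D2:**
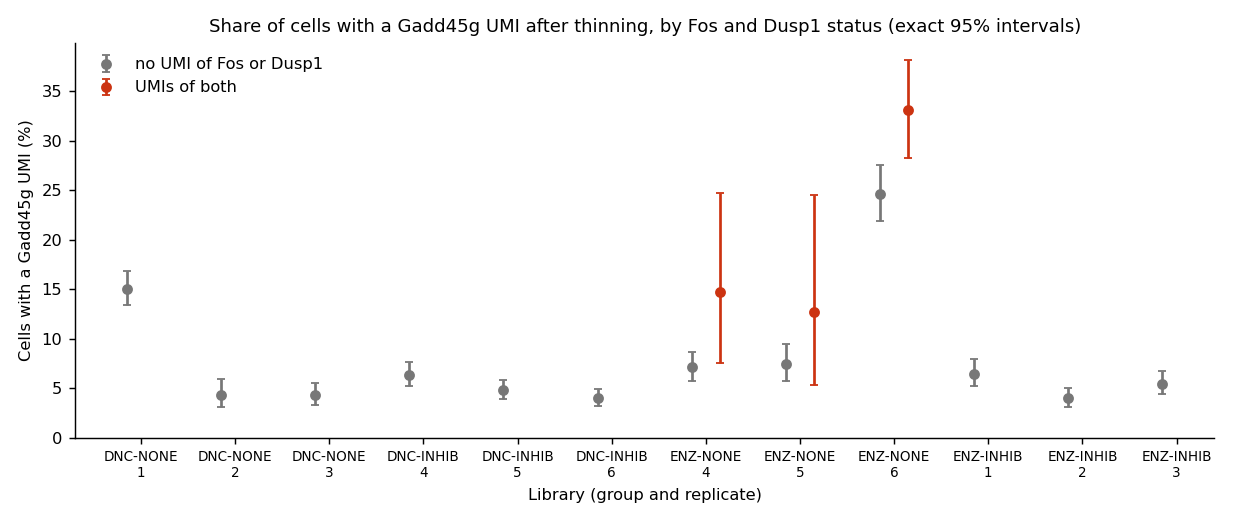
Percentage of cells with a Gadd45g UMI after thinning to 1000 UMIs per cell, by library, for cells with no UMI of Fos or Dusp1 (grey) and cells with both (red, drawn where a library has at least 50 such cells), with exact 95% binomial intervals of counting error. Grey points are between 3.99% and 7.43% in 10 libraries, 15.03% in DNC-NONE replicate 1 and 24.6% in ENZ-NONE replicate 6.

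By the rule for likeness, the 3 genes whose log2 CPM over the 12 libraries was closest to that of Gadd45g were Socs3 (Pearson r 0.964), which encodes a feedback inhibitor of cytokine signalling, Fam217b (r 0.926) and Btg1 (r 0.924), an antiproliferative gene. Socs3 had 985 CPM in ENZ-NONE replicate 6 and 330 CPM in DNC-NONE replicate 1. In the other 10 libraries Socs3 ranged from 23.8 to 119 CPM. None of the 3 was called in any comparison, and the 2 libraries that stand apart are the highest for both Gadd45g and Socs3, as the plot beside Jun and Fos shows. Jun, an AP-1 subunit, was likewise higher in 1 DNC-NONE library, with 726 CPM in replicate 1 against 221 and 203.

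**Figure D3:**
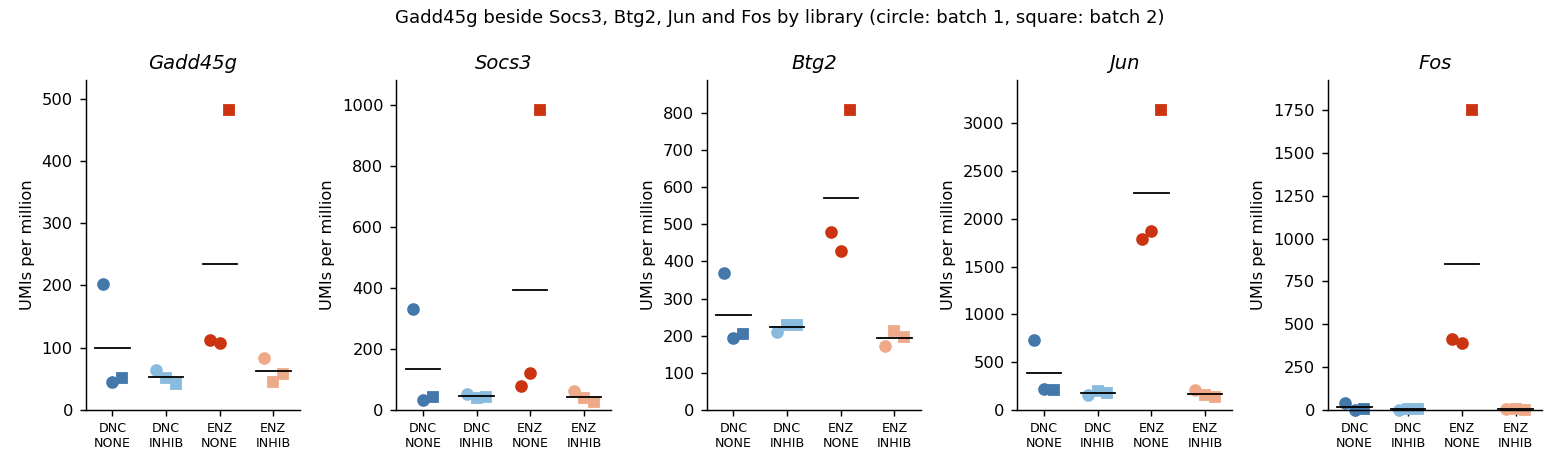
Levels in CPM by library of Gadd45g, of Socs3 (the gene with the most similar profile), of the p53 target Btg2 and of the early response genes Jun and Fos, with the group mean as a bar and the batch as the point's shape. ENZ-NONE replicate 6 is the highest library in all 5 panels, and DNC-NONE replicate 1 is the second highest for Gadd45g and Socs3 but not for Btg2, Jun or Fos.

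In the few macrophage-like and monocyte-like cells, which are cells with UMIs of at least 2 of the border macrophage and monocyte markers, the ENZ-NONE libraries did not overlap the others for Gadd45g. This split was added after the data were seen. These cells numbered 400 in all, 14 to 65 per library. In them Gadd45g stood at 542, 727 and 705 CPM in ENZ-NONE replicates 4, 5 and 6, from 17, 17 and 77 UMIs. In the other 9 libraries it ranged from 0 to 46.3 CPM, from at most 5 UMIs, and DNC-NONE replicate 1 was at 38.4 CPM. Hence all 3 ENZ-NONE libraries lay above all other 9, as they did in these cells for 0.678% of the genes tested. A gene without a UMI in each ENZ-NONE library cannot meet this rule. In ENZ-NONE replicate 5 these cells held 23390 UMIs over all genes, so that share is low in part by the rule itself. The library that stood apart in DNC-NONE did not do so in these cells.

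The thinned share of these cells with a Gadd45g UMI was 20.2% ± 9.71 (SD, n = 3) in ENZ-NONE against 2.17% ± 2.01 (SD, n = 9) elsewhere, a difference of 18.0 points (exact permutation p 0.00909, two-sided, the smallest possible). It was 1 of 18 such comparisons (9 members in 2 cell classes), and its p is not adjusted for them. Without ENZ-NONE replicate 6 the difference was 12.97 points (exact p 0.0364, the smallest that 2 against 9 allow), and over single libraries left out it lay between 12.97 and 22.7 points. The levels rest on few cells, since 1 cell of ENZ-NONE replicate 5 held 16 of the 17 UMIs and 1 of replicate 4 held 10. In the other cells the thinned share was 14.4% ± 11.1 (SD, n = 3) against 6.32% ± 3.75 (SD, n = 9), with an exact p of 0.1. Whether the 2 cell classes differ in their response was not tested.

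Gadd45a and Gadd45b, the other stress sensors of the family, were close to the limit of detection. Gadd45b (ENSMUSG00000015312, chromosome 10, 80930073 to 80932204, plus strand) had 4, 2 and 8 UMIs in ENZ-NONE, 14 of its 23. It had 1, 0 and 4 UMIs in DNC-NONE, and with inhibitors 0, 1 and 1 (Dounce) and 0, 0 and 2 (digestion). In libraries with 0 counts a level of up to 1.13 to 2.82 CPM remains possible (3 counts), which covers counting error only. The thinned share of Gadd45b-positive cells averaged 0.145% ± 0.0700 (SD, n = 3) for ENZ-NONE against 0.0341% ± 0.0575 (SD, n = 9) for the rest, with an unadjusted exact permutation p of 0.0364, among 9 members tested in this way. Without ENZ-NONE replicate 6 the exact p was 0.145, and 0.109 when all barcodes of at least 500 UMIs were used.

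Gadd45a (ENSMUSG00000036390, chromosome 6, 67035096 to 67037457, minus strand), the p53-responsive member of the family, overlaps the antisense gene E230016M11Rik. It had 2, 1 and 1 UMIs in DNC-NONE replicates 1, 2 and 3 and 8, 5 and 7 UMIs in DNC-INHIB replicates 4, 5 and 6. After digestion the order was the other way, with 7, 3 and 7 UMIs in ENZ-NONE and 0, 5 and 3 in ENZ-INHIB. In CPM the DNC-INHIB libraries (1.90 to 3.80) did not overlap the DNC-NONE libraries (0.555 to 0.941), and the ENZ-NONE libraries (1.95 to 3.21) did not overlap the ENZ-INHIB libraries (0 to 1.88). Of the genes with a UMI that failed the low-count filter, 2.16% were lower without overlap in DNC-NONE than in DNC-INHIB, and 2.34% were higher in ENZ-NONE than in ENZ-INHIB, where Gadd45b did not overlap either. A gene with only 1 or 2 UMIs cannot meet this rule, so these shares are low in part by the rule itself. Among the 9884 tested genes the same shares were 5.02% and 4%. With so few molecules of Gadd45a no difference was tested across genes, and its share test of ENZ-NONE against the other 9 gave an exact p of 0.218.

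Cdkn1a (ENSMUSG00000023067, chromosome 17, 29090976 to 29100727, plus strand, overlapped on the other strand by AC167363.2) encodes p21, the cyclin-dependent kinase inhibitor through which p53 arrests the cell cycle. Its level was 24.8, 26.0 and 53.1 CPM in ENZ-NONE replicates 4, 5 and 6 and 26.4, 19.2 and 18.3 CPM in ENZ-INHIB replicates 1, 2 and 3. After Dounce homogenization it was 29.6, 28.2 and 25.0 CPM without inhibitors and 31.8, 24.7 and 25.1 CPM with them. Outside ENZ-NONE replicate 6, the 11 libraries lay between 18.3 and 31.8 CPM and all groups overlapped. The log2 fold change in ENZ-NONE vs ENZ-INHIB was 0.82 (SE 0.25, unadjusted p 0.00455, adjusted p 0.432), or 0.29 without ENZ-NONE replicate 6, and in the interaction 0.78 (SE 0.36, unadjusted p 0.0445), or 0.25 without that library. The average difference between uninhibited and inhibited libraries of Cdkn1a was 0.43 (SE 0.18, adjusted p 0.673), and 0.16 without ENZ-NONE replicate 6.

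Macrophage-like and monocyte-like cells held more than their share of the Cdkn1a molecules. Of its 748 UMIs, 71 (9.49%) came from the macrophage-like and monocyte-like cells, which supplied 2.81% of all UMIs. ENZ-NONE replicate 6 alone held 30 of these 71, and the other libraries held 0 to 8 each. The level of Cdkn1a in these cells was higher than in the other cells in 9 of 12 libraries. In these cells Cdkn1a stood at 159, 171 and 275 CPM in ENZ-NONE, and at 0 to 185 CPM in the other 9 libraries, so that the ranges overlapped. The thinned share of these cells with a Cdkn1a UMI averaged 15.1% ± 5.37 (SD, n = 3) for ENZ-NONE and 4.88% ± 3.57 (SD, n = 9) elsewhere (exact permutation p 0.0182, two-sided, not adjusted for the 18 comparisons). Without ENZ-NONE replicate 5 or 6 the exact p was 0.0727, where 0.0364 is the smallest possible. In the other cells the exact p was 0.218.

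Bbc3 and Ccng1 had lower values without inhibitors than with them in both methods, with no overlap of libraries within a method, but neither difference passed the test across genes. Bbc3 (ENSMUSG00000002083, chromosome 7, 16308393 to 16318205, plus strand) encodes PUMA, a BH3-only protein that sets off apoptosis downstream of p53. Its level was 17.2, 21.6 and 18.3 CPM in DNC-NONE and 25.7, 27.7 and 24.1 CPM in DNC-INHIB. After digestion it was 21.6, 21.5 and 21.6 CPM without and 32.3, 24.5 and 22.6 CPM with inhibitors. No uninhibited library reached the lowest inhibited one in either method, which held for 0.253% of all genes tested when all 6 were set against all 6. The lowest ENZ-INHIB library was also above the highest DNC-NONE library, as for 6.85% of genes.

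Ccng1 (ENSMUSG00000020326, chromosome 11, 40748552 to 40755311, minus strand) encodes cyclin G1, a p53 target that feeds back on the Mdm2 pathway. It stood at 35.2, 39.5 and 22.2 CPM in DNC-NONE and at 40.9, 41.8 and 43.3 CPM in DNC-INHIB. After digestion it stood at 34.4, 31.2 and 37.0 CPM without inhibitors and at 45.8, 37.3 and 42.1 CPM with them. Within each method the groups did not overlap, although DNC-NONE replicate 2 exceeded the lowest ENZ-INHIB library. Of all genes, 5.02% were lower without overlap in DNC-NONE than in DNC-INHIB and 6.71% in ENZ-NONE than in ENZ-INHIB, and 10.6% were so in ENZ-NONE against DNC-INHIB, where Bbc3 and Ccng1 did not overlap either.

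Averaged over both methods, a contrast added after the data were seen, the log2 fold change without inhibitors was -0.35 for Bbc3 (SE 0.11, 95% interval -0.59 to -0.12, unadjusted p 0.00606, adjusted p 0.424) and -0.32 for Ccng1 (SE 0.11, 95% interval -0.55 to -0.082, unadjusted p 0.011, adjusted p 0.511). The Ccng1 value was -0.21 without DNC-NONE replicate 3. Neither was called, and 0.223% of all genes were called in this contrast, all of them higher without inhibitors. At an unadjusted p under 0.05 it held 4 of the 7 tested members (Gadd45g, Bbc3, Ccng1 and Cdkn1a) and 6.98% of all genes. These members went in opposite directions. Gadd45g (log2 fold change 1.54, SE 0.39, edgeR adjusted p 0.196) and Cdkn1a (0.43) were higher without inhibitors, whereas Bbc3 and Ccng1 were lower. In single pairs the Bbc3 difference was -0.47 for DNC-NONE vs DNC-INHIB (SE 0.17, adjusted p 0.903) and 0.50 for ENZ-INHIB vs DNC-NONE (SE 0.17, adjusted p 0.259). Macrophage and monocyte markers were highest in DNC-NONE, and without the macrophage-like and monocyte-like cells the average difference was -0.38 for Bbc3 and -0.32 for Ccng1. Within batch 1 the mean Bbc3 level was 19.4 and 21.5 CPM without inhibitors and 25.7 and 32.3 CPM with them (Dounce and digestion), and within batch 2 it was 18.3 and 21.6 against 25.9 and 23.6 CPM.

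**Figure D4:**
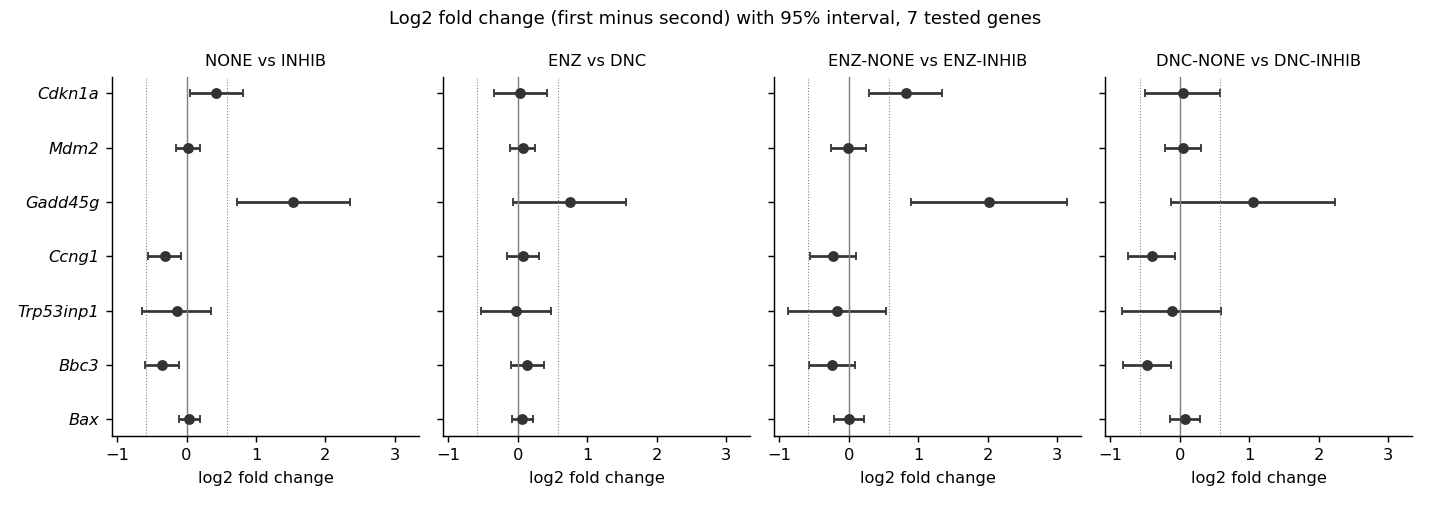
Log2 fold change and 95% interval from the fit across all genes for the 7 members tested, for uninhibited against inhibited libraries over both methods, digested against Dounce libraries over both inhibitor states, and uninhibited against inhibited libraries within each method, with dotted lines at 0.58 either way. Gadd45g has the widest intervals, Bbc3 (-0.35) and Ccng1 (-0.32) lie below 0 in the first panel, and in the second panel all 7 intervals include 0.

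Mdm2, Bax and Trp53inp1 showed no difference past the test in any comparison. Mdm2 (ENSMUSG00000020184, chromosome 10, 117688875 to 117710758, minus strand), the ligase that degrades p53 and one of its most direct transcriptional targets, ranged from 39.4 to 52.0 CPM over all 12 libraries. Its coefficient of variation across libraries was 7.92%, under the 10.3% that counting error alone would give. Its fold changes in the 6 pairs lay between -0.0045 and 0.10 on the log2 scale, with 95% intervals that stayed within -0.26 and 0.35.

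Bax (ENSMUSG00000003873, chromosome 7, 45461697 to 45466898, minus strand), the pore-forming effector of apoptosis, ranged from 145 to 185 CPM and was found in 20.2% of all cells. Another annotated gene, Gm45808, overlaps it on the same strand, so that reads shared by both may be missing from its count. Its coefficient of variation was 7.02% against 5.41% from counting alone, and the 95% intervals of its pair differences stayed within -0.21 and 0.32. In macrophage-like and monocyte-like cells its summed level was 233 CPM against 164 CPM in the other cells, higher in 8 of 12 libraries. DNC-NONE replicate 1 alone held 53 of the 176 Bax UMIs of these cells, at 407 CPM. The other libraries ranged from 115 to 266 CPM in them. Its thinned share differed by 0.290 points between ENZ-NONE and the other 9 libraries (exact permutation p 0.664).

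Trp53inp1 (ENSMUSG00000028211, chromosome 4, 11156431 to 11174379, plus strand), which encodes a nuclear partner of p53 in the stress response, had 190 UMIs in all and ranged from 4.70 to 9.80 CPM. Its coefficient of variation of 25.7% was close to that of counting alone (26.0%). Its pair intervals reached from -0.87 to 0.84, so at this depth the counts do not exclude a change within the interval of each pair. When all digested libraries were set against all Dounce libraries, a contrast also added after the data were seen, 0 of the 7 members were called by edgeR or DESeq2 where 0.9% of all genes were, and 0 of 7 had an unadjusted p under 0.05 where 12.9% of all genes had.

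The wider pathway was taken from lists of 58 other genes, of which 49 were tested. The lists were drawn up with earlier results of these data known. Of 24 further p53 targets, 18 were tested, and 1 rose and 0 fell in ENZ-NONE against each of the other groups. The gene that rose was Btg2, an antiproliferative p53 target that is also an early response gene. Btg2 stood at 478, 429 and 809 CPM in ENZ-NONE and between 173 and 370 CPM in the other 9 libraries, with no overlap. Compared with DNC-NONE, Btg2 differed by 1.1989 on the log2 scale (SE 0.23) at an adjusted p of 0.0155. Compared with the inhibited groups it differed by 1.42 for Dounce cells (adjusted p of 0.00215) and by 1.61 for digested cells (adjusted p of 0.0009). Without ENZ-NONE replicate 6 these 3 values were 0.83, 1.05 and 1.24, all still called. With robust dispersion Btg2 was not called in any of the 3 (adjusted p 0.124 to 0.291), and against DNC-NONE it was not called without DNC-NONE replicate 2 (adjusted p 0.116) or 3 (adjusted p 0.0929). Without inhibitors on average Btg2 was higher by 0.91 (adjusted p 0.0147), and it was not called between the other groups. That average call of Btg2 was lost with robust dispersion (adjusted p 0.451) and without DNC-NONE replicate 1, DNC-INHIB replicate 4 or 5, or ENZ-INHIB replicate 1 or 3 (adjusted p 0.0532 to 0.0726).

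The median log2 fold change of the 18 tested p53 targets in ENZ-NONE was 0.14 over DNC-NONE, 0.29 over DNC-INHIB and 0.052 over ENZ-INHIB, against medians of 0.0022, 0.0056 and -0.0033 over all 9884 genes. In the same order the medians were 0.15, 0.29 and 0.13 for the other BCL2 family genes. They were -0.023, 0.16 and 0.097 for DNA damage sensing and repair, and 0.097, 0.034 and -0.0069 for p53 and its regulators. Whether any list differed from all genes was not tested. Of p53 and its regulators, 8 of 8 genes were tested and 0 called in any pair. Trp53 itself ranged from 67.6 to 105 CPM, and its pair fold changes lay between -0.068 and 0.044 on the log2 scale. Of 20 genes for sensing and repairing DNA damage 17 were tested, of 6 other BCL2 family genes all 6, and 0 of either list were called in the pairs. All 7 early response genes were called higher in ENZ-NONE against each of the other groups. The study reports these genes as raised by digestion without inhibitors in the same animals. Their calls were thus known beforehand and are not an independent check. Of all genes tested, 0.617% (vs DNC-NONE), 0.789% (vs DNC-INHIB) and 0.374% (vs ENZ-INHIB) were called in either direction.

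At this depth, few cells of most libraries had UMIs of several members at once. Between 32.2% and 44.8% of cells held a UMI of at least 1 of the 9 members in 11 libraries. In ENZ-NONE replicate 6, where 35.5% of cells held Gadd45g, 58.6% did, and 273 of the 1748 cells had UMIs of 2 members. Whether members shared cells more often than their separate shares would give was not tested. No cell held UMIs of more than 5 of them.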

How the data were processed

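Single-cell RNA sequencing with a 10x kit gave 12 count matrices. The authors aligned reads to mm10 (GRCm38) and counted unique molecules with Cell Ranger 3.0.0, and the deposited UMI counts are unnormalized and stand before the study's own filters on cells. They hold 28426 barcodes and 2118143 to 3654465 UMIs per library. Barcodes were kept here if they had 1000 UMIs or more and 500 genes or more, with no more than 10% of UMIs from mitochondrial genes. No doublet caller was run, and leaving out the 2% of cells with most UMIs was tried instead.

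UMIs were summed over the cells of a library, since the animal is the replicate, and tested with edgeR 4.0.16 (TMM scaling, filterByExpr, quasi-likelihood F-test, all 12 libraries in 1 fit with a term for each group) in R 4.3.3, with Benjamini-Hochberg adjustment over 9884 genes. DESeq2 1.42.0 was an alternative. The step was tested on simulated data in which all genes shared a common spread and no library stood apart. That check does not cover a gene whose spread is as wide as that of Gadd45g. Shares of cells with a UMI were computed as the mean over all ways of thinning each cell to 1000 UMIs and compared between ENZ-NONE and the other 9 libraries with two-sided exact permutation tests in SciPy 1.17.1, with p not adjusted. The split by Fos and Dusp1 used a single seeded draw of 1000 UMIs per cell instead. Intervals of shares are exact binomial (Clopper-Pearson). Intervals and limits cover counting error only.

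All 9 members were named whatever their values, and from the pathway lists those called in a pair and Trp53. Likeness was Pearson's r of log2 CPM with the member of smallest adjusted p. Members and lists were chosen with earlier results of these data known. The averaged contrasts, the split by cell class and the omission of 2 libraries together were added after the data were seen. Promoters and positions came from RefSeq (GRCm38.p6) and GENCODE annotations. Groups and batches came from the labels.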

Additional observations from a re-analysis of the deposited data

How the results depend on the processing

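Without a filter on low counts, genes called numbered 203 in ENZ-NONE vs DNC-NONE (61 with it), 209 vs DNC-INHIB (78) and 142 vs ENZ-INHIB (37), 86 in DNC-NONE vs DNC-INHIB (0), 98 in ENZ-INHIB vs DNC-INHIB (15), 215 in ENZ-INHIB vs DNC-NONE (10), 73 in the interaction (17), 130 in NONE vs INHIB (22) and 236 in ENZ vs DNC (89). Gadd45g was then called in all of these but ENZ-INHIB vs DNC-INHIB, so that 1 member was called in each, and 2 in ENZ-NONE vs ENZ-INHIB with Cdkn1a. That fit gave a gene's own spread no weight (infinite prior degrees of freedom, 9.62 in the filtered fit). DESeq2 called 1 gene in DNC-NONE vs DNC-INHIB, 9 in ENZ-INHIB vs DNC-INHIB and 19 in ENZ-INHIB vs DNC-NONE. With batch as a covariate these were 2 and 24 for the first and second, all deposited barcodes gave 19 for the third, and robust dispersion gave 17 for the third, 6 in the interaction and 7 in NONE vs INHIB. An adjusted p alone gave 155 in ENZ vs DNC. In ENZ-NONE vs DNC-INHIB 1 member, Gadd45g, was called with batch as a covariate, without macrophage-like and monocyte-like cells (adjusted p 0.0487) and without the cells of most UMIs (adjusted p 0.047). The cause of these shifts was not tested.

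Replicate numbers are shared between ENZ-NONE and DNC-INHIB and between ENZ-INHIB and DNC-NONE. Deviations of same-numbered libraries correlated at -0.083 to 0.16, so the numbers were not taken to pair animals. With the replicate block, 95 and 70 genes and 1 and 0 members were called, and Gadd45g had a log2 fold change of 2.00 in the first (adjusted p 0.0197).

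Over settings that left out 1 library, or both ENZ-NONE replicate 6 and DNC-NONE replicate 1, genes called ranged from 40 to 91 in ENZ-NONE vs DNC-NONE, 50 to 92 in ENZ-NONE vs DNC-INHIB, 29 to 56 in ENZ-NONE vs ENZ-INHIB, 0 to 14 in DNC-NONE vs DNC-INHIB, 2 to 45 in ENZ-INHIB vs DNC-INHIB, 0 to 61 in ENZ-INHIB vs DNC-NONE, 6 to 28 in the interaction, 8 to 36 in NONE vs INHIB and 47 to 132 in ENZ vs DNC. With both left out the counts were 14, 45, 54 and 28 in the fourth to the seventh of these. Members called ranged from 0 to 1 in the comparisons of ENZ-NONE and in ENZ vs DNC and were 0 in the rest. The member was Gadd45g, which was called vs DNC-INHIB without DNC-NONE replicate 1, without DNC-NONE replicate 3 (adjusted p 0.0429), without ENZ-NONE replicate 4 (0.0171) and without ENZ-NONE replicate 5 (0.019), and vs ENZ-INHIB without DNC-NONE replicate 1 (0.0419). A left-out setting moved the difference in thinned share between ENZ-NONE and the other libraries to 0.130 to 1.25 points for Cdkn1a, -0.058 to 0.096 for Mdm2, 0.059 to 0.140 for Gadd45a, 0.071 to 0.135 for Gadd45b, 1.89 to 11.5 for Gadd45g, -0.732 to -0.240 for Ccng1, -0.113 to 0.011 for Trp53inp1, -0.217 to -0.041 for Bbc3 and 0.069 to 0.516 for Bax. With all barcodes of at least 500 UMIs these differences were 0.0606 for Gadd45a (exact permutation p 0.0455) and 0.0348 for Gadd45b (exact permutation p 0.109). Of 1526 other alternative values 1496 kept their side of the threshold, 5 no longer passed it, 25 newly passed it and 0 that had passed were reversed, while 113 that had not passed changed sign. With 49 and 23 molecules in all, Gadd45a and Gadd45b are limited by depth, and with 3 animals a group the Gadd45g comparisons are limited by the spread between animals.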
